A study of Mus musculus with 12 samples.

Results

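The transcription factor Nrf2, its inhibitor Keap1 and 7 of its best known target genes were followed across the cochleae of coffee, green tea extract (GTE) and control mice. The 9 genes were Nfe2l2, which encodes Nrf2, with Keap1, Hmox1, Gclc, Gclm, Txnrd1, Srxn1, Slc7a11 and Gsr. They were chosen by name as members of the pathway, and they are 9 of the 34538 genes in the deposited tables. All 9 were expressed highly enough to be tested, as were 15854 genes in all. The samples were cochleae, the hearing organs of the inner ear, of wild-type C57BL/6J mice taken at 12 months of age, 4 libraries per group. Coffee mice drank water with black coffee at 0.1%, and GTE mice drank water with green tea extract at 0.006%, from the age of 3 months until 12 months. Control mice had plain water over the same time. All 3 groups shared genotype, age and strain, and mice of this strain lose high-frequency hearing early in life.

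Nrf2 is a transcription factor that is made continuously and broken down continuously. KEAP1 ties it to a CUL3 ubiquitin ligase, and oxidants or electrophiles that modify cysteines of KEAP1 let Nrf2 escape, pair with a small MAF protein and bind antioxidant response elements near its target genes. This control acts largely on the protein, so the targets, more than the Nfe2l2 mRNA, are used to read the activity of the pathway. Mice without Nrf2 are known to lose more hearing with noise and age, and glutathione, whose synthesis Nrf2 targets carry out, is a main antioxidant of the cochlea.

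The deposited values were FPKM, that is, fragments normalised to the length of each gene and to library depth, so levels of genes of different length can be compared. Each library held 20526024 to 24835934 fragments by the FPKM denominator, and a floor of 3 fragments on 2000 exon bases came to 0.0604 to 0.0731 FPKM, which covers counting error only. The members rested on 561 (Hmox1) to 9177 (Gsr) fragments per library. Marker genes of the labelled tissue were present in every library, among them Kcne1 of the stria vascularis (12.7 to 36.3 FPKM) and Otof of the hair cells (4.61 to 13.7 FPKM). Transcripts of bone marrow were present too. The 18 genes of a myeloid marrow list, which code for granule proteins and other products of neutrophils and their precursors, summed to 18999 to 30983 FPKM in coffee, 13481 to 35730 FPKM in GTE and 11420 to 18217 FPKM in control libraries, and none of them was at 0 in any library. The libraries coffee 1, coffee 4 and GTE 1 had the 3 highest mean levels of this list, although coffee 4 lay nearer to coffee 3 than to the other two, and results are also given without them. Whether the 4 libraries of each group are 4 animals is not given in the labels, and p-values thus rest on a spread that could be technical. In whole tissue, fewer cells of a type and less RNA per cell cannot be told apart.

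Promoters of the members were searched for the core of the antioxidant response element, TGACNNNGC, and for TGANTCA, the site of the related AP-1 factors, on both strands. RefSeq windows of 300 bases (250 before and 50 after the start site, build GRCm38.p6, the same coordinates as mm10) were found for 6 members, which had 8 windows. The TGACNNNGC core was present in 4 of these 8 windows, 1 each of Nfe2l2, Gclm, Txnrd1 and Srxn1, and in 12.4% of all 32851 windows. Its first base was at -240 from the start site in Nfe2l2, at -134 in Gclm, at -92 in Txnrd1 and at 29 in Srxn1. TGANTCA was found in Srxn1, at -102 and at -45, and in 7.81% of all windows, and no match of one motif overlapped one of the other. No match was found in the windows of Keap1 and Slc7a11, which says only that these letters are not in those windows. The 250 bases before the start site are shown for Gclm, the member with the smallest p over the 3 groups, and for the other 3 genes with a match, 5′ to 3′ on the strand of the gene. Capitals mark TGACNNNGC, on either strand, in Gclm, Nfe2l2 and Txnrd1, and TGANTCA in Srxn1, whose TGACNNNGC match lies after the start site and is not shown.
Gclm (chr3:122245307-122245556, plus strand): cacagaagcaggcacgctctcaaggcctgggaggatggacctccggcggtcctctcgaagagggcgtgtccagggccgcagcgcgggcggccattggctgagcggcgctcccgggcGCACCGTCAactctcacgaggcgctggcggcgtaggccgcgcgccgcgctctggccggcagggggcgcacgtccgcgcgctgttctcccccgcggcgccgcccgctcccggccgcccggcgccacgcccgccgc
Nfe2l2 (chr2:75704664-75704913, minus strand): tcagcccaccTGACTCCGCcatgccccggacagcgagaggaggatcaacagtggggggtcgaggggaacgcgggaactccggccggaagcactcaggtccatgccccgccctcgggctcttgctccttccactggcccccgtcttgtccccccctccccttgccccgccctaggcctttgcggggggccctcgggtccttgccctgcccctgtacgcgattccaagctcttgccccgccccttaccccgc
Txnrd1 (chr10:82858956-82859205, plus strand): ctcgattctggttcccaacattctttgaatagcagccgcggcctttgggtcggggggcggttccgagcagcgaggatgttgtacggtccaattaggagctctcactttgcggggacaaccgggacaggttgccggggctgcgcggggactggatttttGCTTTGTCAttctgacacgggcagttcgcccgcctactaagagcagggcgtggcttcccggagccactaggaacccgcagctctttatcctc
Srxn1 (chr2:152105274-152105523, plus strand): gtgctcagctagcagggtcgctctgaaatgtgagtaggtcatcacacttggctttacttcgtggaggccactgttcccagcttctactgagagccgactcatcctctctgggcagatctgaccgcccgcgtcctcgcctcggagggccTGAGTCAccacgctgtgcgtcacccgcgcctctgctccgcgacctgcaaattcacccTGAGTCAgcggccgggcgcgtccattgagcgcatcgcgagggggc

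Over all 12 libraries, Gsr had the highest level of the 9 genes, 77.0 FPKM on average, and Slc7a11 the lowest, 5.15 FPKM. Between them lay Nfe2l2 at 31.8, Srxn1 at 24.6, Hmox1 at 22.9, Gclc at 19.4, Txnrd1 at 16.5, Gclm at 11.7 and Keap1 at 11.4 FPKM. Only Gsr at the top and Slc7a11 at the bottom were separated from their neighbours in this order by ranges that did not overlap, although the highest Slc7a11 value, 8.74 FPKM, exceeded the lowest of Gclm, 8.53 FPKM. Srxn1, Hmox1, Gclc and Txnrd1 formed a run in which each range overlapped the next. Gclm and Keap1 could not be ordered across all libraries, since Gclm was above Keap1 in 5 of the 12. Within groups their order differed. Gclm was above Keap1 in 3 of 4 coffee libraries and 2 of 4 GTE libraries, and Keap1 was above Gclm in 4 of 4 control libraries, where the ranges did not overlap.

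**Figure D1:**
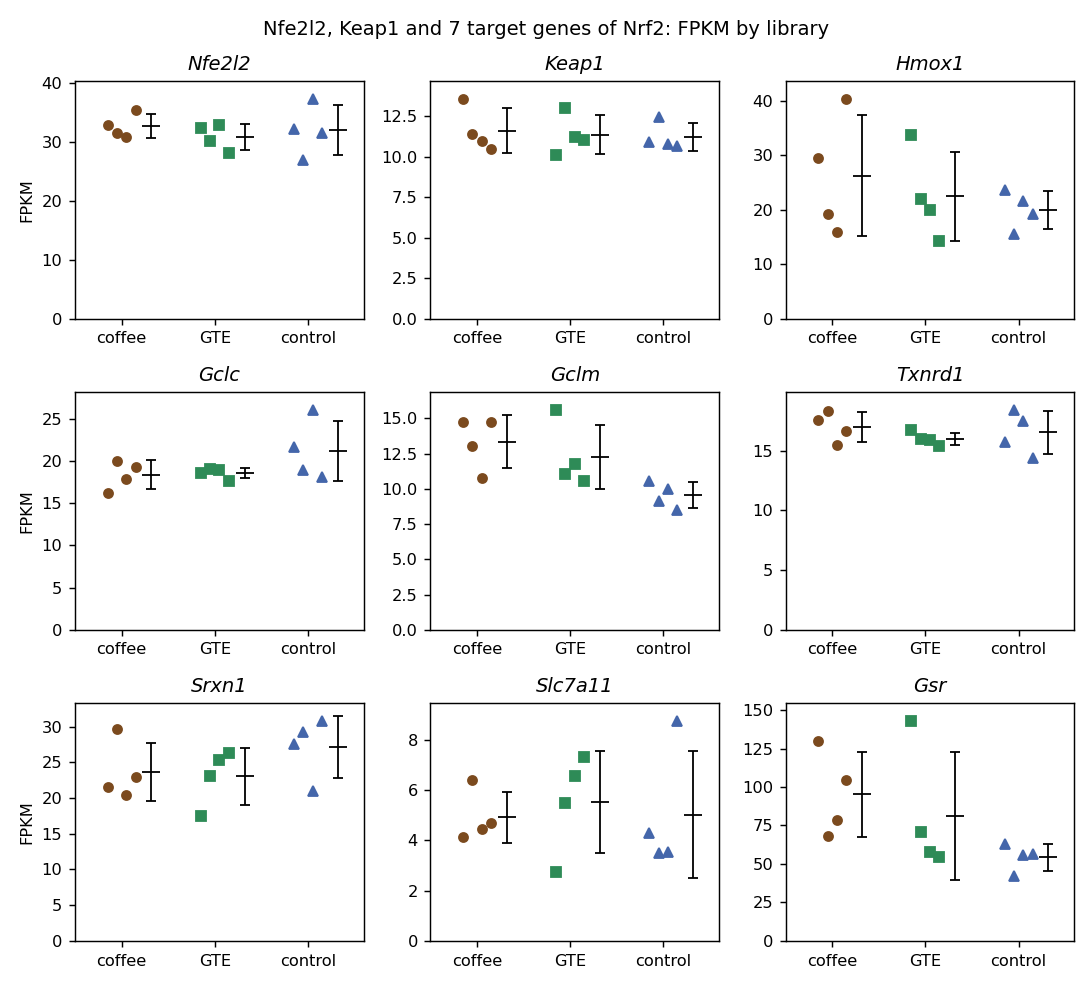
FPKM (vertical axes, from 0) of the 9 genes in each of the 4 coffee, 4 GTE and 4 control libraries; points are libraries, and the dash with its bar is the mean ± SD of the group. Gclm and Gsr are the genes whose 4 coffee points all lie above the 4 control points, and Gsr reaches 143 FPKM in 1 GTE library.

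Coffee was compared with control, GTE with control and GTE with coffee, to ask whether long-term intake of either drink left the Nrf2 pathway at another level in the ageing cochlea. The first 2 comparisons share the control libraries. Differences are given in log2(FPKM + 1), a scale that makes the change of genes with low values, such as Slc7a11, look smaller. They were tested with limma over all 15854 genes with Benjamini-Hochberg adjustment.

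Of the 9 members, none passed an adjusted p of 0.05 in coffee against control, where 0.00631% of all genes tested did. At an unadjusted p under 0.05, 2 of the 9 were called, Gclm and Gsr, both higher in coffee, against 9.25% of all genes that were called higher and 20.0% called in either direction. The same 2 members were the only ones whose coffee libraries all lay above the control libraries, against 5.93% of all genes. In GTE against control none passed the adjusted threshold (0.00631% of all genes did), and 1 member, Gclm, was called higher at an unadjusted p under 0.05, against 4.14% of all genes called higher and 8.43% in either direction. No member had all its GTE libraries above the control libraries, against 2.88% of all genes. In GTE against coffee none passed (0% of all genes did), and no member had an unadjusted p under 0.05, against 6.76% of all genes called in either direction. The GTE libraries lay above all coffee libraries in 1.70% of all genes and in no member. The moderated F test of limma over the 3 groups gave an unadjusted p under 0.05 for 1 member, Gclm, against 12.6% of all genes, and no adjusted call. The median difference over the 9 members was 0.04 in coffee against control, 0.02 in GTE against control and -0.08 in GTE against coffee, beside medians of 0.01, 0.01 and -0.00 over all genes tested.

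Weighting the libraries by their quality in limma changed the adjusted calls: Gclm and Gsr then passed in coffee against control, with adjusted p of 0.0251 and 0.0346, in a fit that called 2437 genes in all, against 1 without weights. Voom on recovered fragments brought no member past the adjusted threshold in any comparison. At an unadjusted p under 0.05 it called Gclm and Gsr in coffee against control and Gclm in GTE against control, beside 19.8% and 8.52% of all genes.

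**Figure D2:**
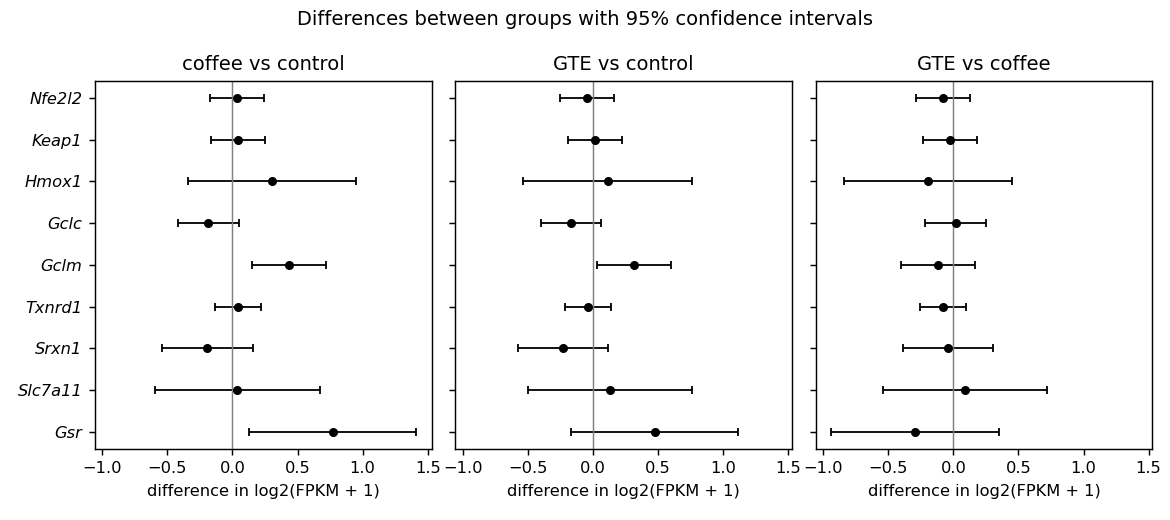
Difference in log2(FPKM + 1) (horizontal axes) of the 9 genes between the groups, with its 95% confidence interval from limma. In coffee against control the intervals of Gclm (0.15 to 0.72) and Gsr (0.13 to 1.41) lie above 0, and in GTE against control that of Gclm (0.03 to 0.60) does; every other interval includes 0.

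The group means of the factor and of its sensor lay close together. Nfe2l2, the gene of Nrf2, had 32.8, 31.5, 30.7 and 35.3 FPKM in coffee, 32.2, 30.1, 32.8 and 28.1 FPKM in GTE and 32.2, 26.8, 37.3 and 31.5 FPKM in control libraries. Its lowest and its highest value were both in control libraries, and all 3 groups overlapped. The difference was 0.03 ± 0.09 (SE) in coffee against control, with a 95% interval of -0.17 to 0.24 and an adjusted p of 0.845 in limma, and -0.04 ± 0.09 in GTE against control, with an interval of -0.25 to 0.16 and an adjusted p of 0.887.

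Keap1, which binds Nrf2 and hands it to the ubiquitin ligase, had 13.6, 11.4, 10.9 and 10.5 FPKM in coffee, 10.1, 13.0, 11.2 and 11.0 FPKM in GTE and 10.9, 12.5, 10.8 and 10.7 FPKM in control libraries. Its groups overlapped fully. The limma difference from control was 0.04 (interval -0.16 to 0.25) in coffee and 0.02 (-0.19 to 0.22) in GTE, with adjusted p of 0.804 and 0.965. Keap1 shares 10.9% of its exon bases with Gm16754 on the opposite strand, which was listed at 0.233 to 0.831 FPKM.

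Gclm and Gclc encode the modifier and the catalytic subunit of glutamate-cysteine ligase, which carries out the first and rate-limiting step of glutathione synthesis. Gclm had 14.8, 13.1, 10.8 and 14.7 FPKM in coffee, 15.6, 11.1, 11.8 and 10.57 FPKM in GTE and 10.59, 9.11, 9.99 and 8.53 FPKM in control libraries. All coffee libraries lay above all control libraries, and 3 of the 4 GTE libraries did, while the fourth, at 10.57 FPKM, was just below the highest control library. The means were 13.3 ± 1.88, 12.3 ± 2.29 and 9.56 ± 0.912 FPKM in coffee, GTE and control (SD, n = 4 each). The difference from control was 0.44 ± 0.13 (SE) in coffee, with a limma p of 0.00601 and an adjusted p of 0.200, and 0.32 ± 0.13 in GTE, with a p of 0.0313 and an adjusted p of 0.574. The GTE difference lost its unadjusted call without control 2 (p of 0.0667), without control 4 (0.0845), without GTE 1 (0.0906) and under library weights (0.0524), and was 0.20 without GTE 1 and under the weights. Between GTE and coffee it was -0.12, with an interval of -0.40 to 0.17. Gclm shares 4.71% of its exon bases with Gm17494 on the opposite strand, which was listed at no more than 0.143 FPKM.

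Gclc had 16.2, 20.0, 17.9 and 19.3 FPKM in coffee, 18.6, 19.0, 18.9 and 17.7 FPKM in GTE and 21.6, 19.0, 26.1 and 18.1 FPKM in control libraries. Its highest values were in 2 control libraries, while the other 2 lay among the coffee and GTE values. The limma difference from control was -0.19 (interval -0.42 to 0.05) in coffee and -0.17 (-0.40 to 0.06) in GTE, with adjusted p of 0.328 and 0.618. Control 3 had the highest Gclc value, and without it the differences were -0.086 and -0.068, more than 1.5 times smaller in size. Without control 4 the difference in coffee against control was -0.25, with an unadjusted p under 0.05 (0.0379) and an adjusted p of 0.359, beside 13.7% of all genes with an unadjusted p under 0.05. The subunits of this enzyme thus had differences from control of opposite sign in both treated groups.

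The ratio of Gclc to Gclm, looked at after these values were seen and therefore given without a test, was 1.10, 1.53, 1.66 and 1.31 in coffee, 1.19, 1.72, 1.61 and 1.67 in GTE and 2.04, 2.08, 2.61 and 2.12 in control libraries. Each of the 8 coffee and GTE libraries lay below each of the 4 control libraries. The mean ratio was 1.40 ± 0.248 in coffee, 1.55 ± 0.241 in GTE and 2.21 ± 0.267 in control (SD, n = 4 each), a log2 difference from control of -0.67 in coffee and -0.52 in GTE. Leaving out coffee 1, coffee 4 and GTE 1 gave -0.46 and -0.40. With the mean level of the myeloid marrow list as a covariate they were -0.39 and -0.38, so that the coffee difference was smaller in size by more than 1.5 times.

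**Figure D3:**
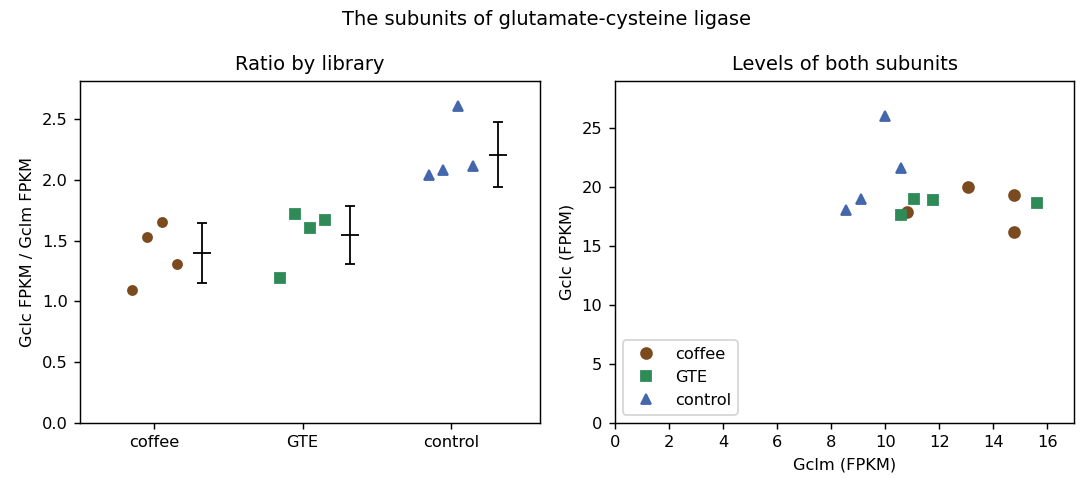
Left, ratio of Gclc FPKM to Gclm FPKM in each library (points) with the group mean ± SD; right, Gclc FPKM against Gclm FPKM, 1 point per library. Coffee and GTE points have ratios of 1.10 to 1.72 and control points 2.04 to 2.61; in the right panel the control points stand to the left, at 8.53 to 10.59 FPKM of Gclm.

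Slc7a11 encodes the light chain of the exchanger that brings cystine, the source of cysteine for glutathione, into the cell. It had 4.11, 6.38, 4.46 and 4.70 FPKM in coffee, 2.72, 5.47, 6.57 and 7.31 FPKM in GTE and 4.30, 3.51, 3.53 and 8.74 FPKM in control libraries. Control 4 had the highest value of all and lay far from the other 3 control libraries, and GTE 1 had the lowest. The differences from control were 0.04 (interval -0.59 to 0.67) in coffee and 0.13 (-0.50 to 0.76) in GTE, with limma adjusted p of 0.945 and 0.892. Without control 4 they were 0.30 and 0.39, more than 1.5 times as large, and were still not called, with adjusted p of 0.540 and 0.721.

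Gsr encodes glutathione reductase, which returns oxidised glutathione to its reduced form with electrons from NADPH. It had 129.9, 68.5, 78.3 and 104.5 FPKM in coffee, 143, 70.6, 57.8 and 54.4 FPKM in GTE and 62.9, 42.3, 55.5 and 56.7 FPKM in control libraries. All coffee values exceeded all control values, and in GTE 2 libraries did so while the other 2 lay among the control values. The mean was 95.3 ± 27.6 FPKM in coffee, 81.4 ± 41.6 FPKM in GTE and 54.3 ± 8.66 FPKM in control (SD, n = 4 each). The difference from control was 0.77 ± 0.29 (SE) in coffee, with a limma p of 0.0231 and an adjusted p of 0.220, and 0.47 ± 0.29 in GTE, with a p of 0.133 and an adjusted p of 0.612. A single library weighed heavily in GTE: without GTE 1 the difference was 0.17, with an adjusted p of 0.944. In coffee against control Gsr differed by 0.42, with a p of 0.0567, when the level of a macrophage marker list was a covariate.

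Txnrd1 and Srxn1 serve the thioredoxin side of the pathway. Txnrd1 encodes the cytosolic thioredoxin reductase and was the steadiest of the 9 genes, with its highest value 1.28 times its lowest. It ranged over 15.4 to 18.3 FPKM in coffee, 15.4 to 16.7 FPKM in GTE and 14.4 to 18.4 FPKM in control libraries. The limma difference from control was 0.04 (interval -0.14 to 0.22) in coffee and -0.04 (-0.22 to 0.14) in GTE, with adjusted p of 0.787 and 0.881.

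Srxn1 encodes sulfiredoxin, which restores overoxidised peroxiredoxins. It had 21.6, 29.6, 20.5 and 22.9 FPKM in coffee, 17.4, 23.1, 25.3 and 26.4 FPKM in GTE and 27.6, 29.2, 21.0 and 30.8 FPKM in control libraries. Of the control libraries 3 exceeded every GTE library and 3 of the 4 coffee libraries, and the fourth lay within both groups. The difference from control was -0.19 (interval -0.54 to 0.15) in coffee and -0.23 (-0.58 to 0.12) in GTE, with limma adjusted p of 0.484 and 0.636.

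Hmox1 encodes heme oxygenase 1, which breaks heme down to biliverdin, carbon monoxide and iron, and is abundant in macrophages that clear red cells. It had 29.5, 19.3, 16.0 and 40.4 FPKM in coffee, 33.8, 22.0, 19.9 and 14.3 FPKM in GTE and 23.7, 15.6, 21.5 and 19.2 FPKM in control libraries. The highest 3 values were in coffee 4, GTE 1 and coffee 1, and the other libraries of all groups overlapped between 14.3 and 23.7 FPKM. The difference from control was 0.31 (interval -0.34 to 0.95) in coffee and 0.11 (-0.53 to 0.76) in GTE, with limma adjusted p of 0.552 and 0.909. Without coffee 1, coffee 4 and GTE 1 these differences were -0.16 and -0.10.

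The levels of the members were compared pair by pair across the libraries. Of their 36 pairs, 2 passed an adjusted p of 0.05 for Pearson's r over the 12 libraries. Gclm and Gsr had r = 0.88 (permutation p = 0.00021, adjusted 0.0076) and rho = 0.87 (permutation p = 0.00071, adjusted 0.026), with r = 0.78 without the 2 libraries farthest from the median and r = 0.81 within groups. Hmox1 and Gsr had r = 0.80 (permutation p = 0.0027, adjusted 0.049) but rho = 0.74 (permutation p = 0.0079, adjusted 0.12), with r = 0.67 without the 2 farthest libraries and 0.83 within groups. The gene of Nrf2 itself was in neither pair.

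The level of the myeloid marrow list went with 4 of the members. As the mean log2(FPKM + 1) of its 18 genes, this list stood at 9.19, 8.36, 8.63 and 8.81 in coffee, 9.31, 8.24, 7.90 and 7.72 in GTE and 8.23, 7.55, 7.99 and 7.48 in control libraries, so every coffee library was above every control library. Of 45 relations between the 9 members and 5 marker lists (myeloid marrow, red cell precursors, macrophages, stria vascularis and pigment cells), computed over the 12 libraries, 16 passed an adjusted p of 0.05 for Pearson's r.

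For Gsr and the myeloid marrow list r was 0.96 (permutation p = 1e-05, the smallest that 100000 resamples can give, adjusted 0.00045) and rho 0.94 (permutation p = 3e-05, adjusted 0.00067), with r = 0.91 without the 2 libraries farthest from the median of the list and 0.94 within groups. For Gclm r was 0.89 (permutation p = 0.00014, adjusted 0.0015) and rho 0.89 (permutation p = 0.00022, adjusted 0.0023), with 0.80 without those 2 libraries and 0.83 within groups. Hmox1 had r = 0.74 (permutation p = 0.0058, adjusted 0.020) and rho = 0.71 (permutation p = 0.012, adjusted 0.048), with 0.60 without the 2 libraries and 0.76 within groups. The same 3 genes followed the 12 genes of the red cell precursor list. Against it r was 0.82 for Gclm (permutation p = 0.0014, adjusted 0.0078), 0.83 for Hmox1 (permutation p = 0.00079, adjusted 0.0051) and 0.73 for Gsr (permutation p = 0.007, adjusted 0.021), with rho of 0.74 (permutation p = 0.0076, adjusted 0.038), 0.84 (permutation p = 0.0012, adjusted 0.0080) and 0.57 (permutation p = 0.059, adjusted 0.16). Without the 2 libraries farthest from the median of that list r was 0.65, 0.70 and 0.46. Within groups it was 0.94 for both Gclm and Hmox1, above their values for the myeloid marrow list, and 0.78 for Gsr, below its value. The red cell list summed to 1817 to 5206 FPKM in coffee, 3965 to 8813 FPKM in GTE and 3010 to 4965 FPKM in control libraries, and its part in the group differences was not tested.

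Srxn1 ran the other way, with r = -0.75 (permutation p = 0.0057, adjusted 0.020) and rho = -0.70 (permutation p = 0.014, adjusted 0.054), and with r = -0.58 without the 2 libraries and -0.78 within groups. Slc7a11 had r = -0.56 over the 12 libraries (permutation p = 0.063, adjusted 0.16) and -0.79 within groups (permutation p = 0.0069, adjusted 0.031). Hmox1 also went with the 12 genes of the macrophage list, with r = 0.90 (permutation p = 0.00018, adjusted 0.0015), rho = 0.73 (permutation p = 0.0085, adjusted 0.038), r = 0.80 without the 2 farthest libraries and 0.90 within groups. Gsr and Gclm passed with the macrophage list too. For Gsr r was 0.82 (permutation p = 0.0023, adjusted 0.011) and rho 0.75 (adjusted 0.038). For Gclm r was 0.73 (permutation p = 0.0079, adjusted 0.022) and rho 0.61 (adjusted 0.12). That list summed to 327 to 476 FPKM in coffee, 284 to 366 FPKM in GTE and 304 to 360 FPKM in control libraries. Keap1, Gclc and Txnrd1 passed with none of the 5 lists, pooled or within groups. Nfe2l2 passed with none in the pooled values, while within groups it had r = 0.62 with the red cell precursor list (permutation p = 0.009, adjusted 0.032), against a pooled r of 0.44 (permutation p = 0.15, adjusted 0.35) and rho of 0.63 (permutation p = 0.032, adjusted 0.10).

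Gclm, Gsr and Hmox1 had the opposite relation to the stria vascularis list, the 10 genes of the tissue that makes the endolymph. For Gclm r was -0.92 (permutation p = 3e-05, adjusted 0.00067) and rho -0.93 (permutation p = 2e-05, adjusted 0.00067), with -0.91 without the 2 farthest libraries and -0.89 within groups. For Gsr r was -0.93 (permutation p = 0.0001, adjusted 0.0015) and rho -0.90 (permutation p = 0.00018, adjusted 0.0023), with -0.91 and -0.90. For Hmox1 r was -0.79 (permutation p = 0.0036, adjusted 0.015) and rho -0.60 (permutation p = 0.043, adjusted 0.12), with -0.62 and -0.86. The pigment cell list had the same sign. Its r was -0.87 for Gclm, -0.82 for Gsr and -0.75 for Hmox1 (permutation p adjusted 0.0015, 0.010 and 0.020). Its rho was -0.90, -0.85 and -0.66 (permutation p adjusted 0.0023, 0.0070 and 0.083). The stria list summed to 324 to 556 FPKM in coffee, 351 to 651 FPKM in GTE and 621 to 690 FPKM in control libraries. The lists are shares of the same libraries, so a higher level of one can go with a lower level of another.

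**Figure D4:**
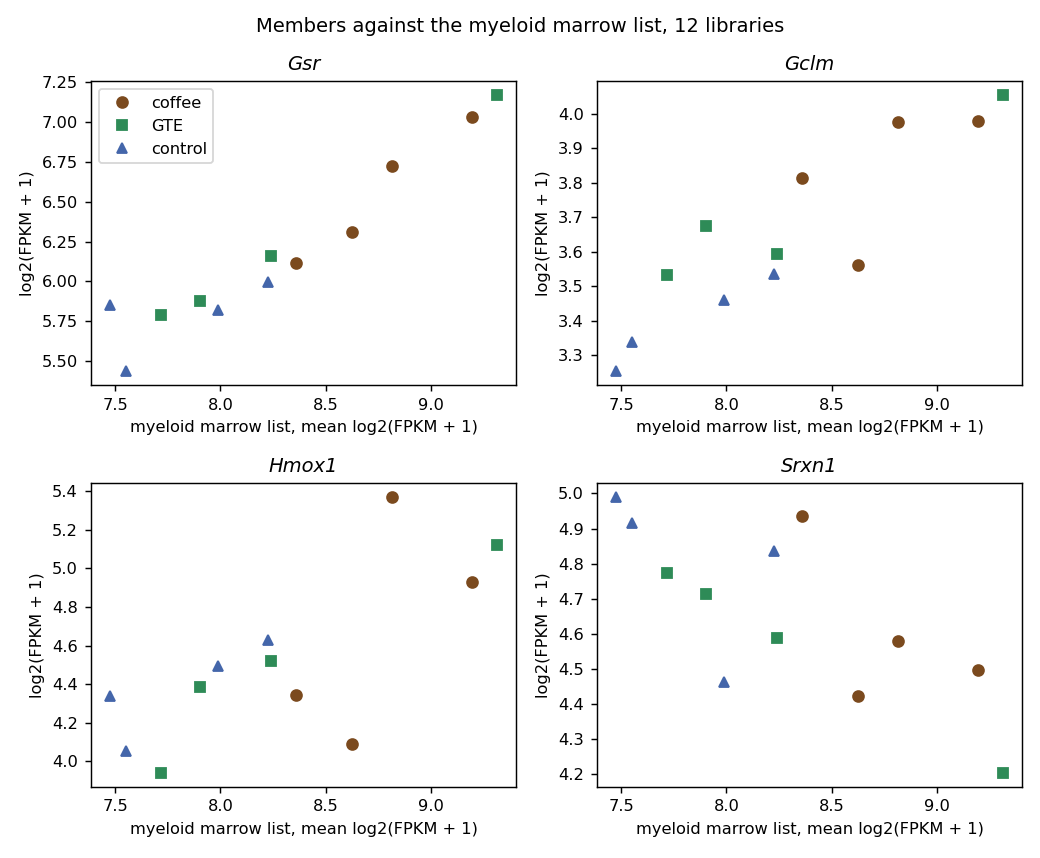
Log2(FPKM + 1) of Gsr, Gclm, Hmox1 and Srxn1 (vertical axes) against the mean log2(FPKM + 1) of the 18 genes of the myeloid marrow list (horizontal axes), 1 point per library. Gsr and Gclm climb with the list (r = 0.96 and 0.89), Hmox1 less closely (0.74), and Srxn1 runs down (-0.75); coffee 1, coffee 4 and GTE 1 are the 3 points farthest to the right.

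The differences of Gclm and Gsr were computed again with the level of the marrow list in the fit and with libraries left out. Every coffee library was above every control library in that list. In coffee against control the drink and the list level thus cannot be told apart. A smaller difference with the covariate does not show its cause. With the mean of the myeloid marrow list as a covariate, the difference in coffee against control was 0.14 for Gclm and -0.03 for Gsr, with limma adjusted p of 0.696 and 0.971, and in GTE against control it was 0.16 and 0.06, with adjusted p of 0.645 and 0.912. Without coffee 1, coffee 4 and GTE 1, Gclm differed by 0.29 and Gsr by 0.44 in coffee against control, both with an unadjusted p under 0.05 (0.0223 and 0.0258) and with adjusted p of 0.504 and 0.509. Of all genes, 9.40% had an unadjusted p under 0.05 there, against 20.0% with all libraries. In GTE against control the same omission left 0.20 for Gclm and 0.17 for Gsr, with unadjusted p of 0.055 and 0.274. With the marrow covariate, Slc7a11 became the 1 member with an unadjusted p under 0.05, at 0.69 in coffee and 0.47 in GTE against control, with adjusted p of 0.319 and 0.571. Of all genes, 11.3% and 8.57% had an unadjusted p under 0.05 in these comparisons with that covariate.

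The wider pathway was read from 46 further genes in 6 lists, which were all tested. None passed an adjusted p of 0.05 in limma in any comparison. In coffee against control, 2 of the 46 were called higher and 9 lower at an unadjusted p under 0.05, beside 9.25% and 10.8% of all genes, and the median difference was -0.02. In GTE against control 1 was called lower and none higher, beside 4.30% and 4.14% of all genes. In GTE against coffee 5 were called higher and 2 lower, beside 4.52% and 2.23% of all genes. Library weights called 9 of the 46 in coffee against control and 2 in GTE against coffee at the adjusted threshold. In that fit 34.7% and 29.2% of all genes had an unadjusted p under 0.05, against 20.0% and 6.76% without weights. That threshold is looser than the adjusted one, so these shares are no background for the 9 and the 2. The number of all genes past the adjusted threshold in coffee against control under the weights is given above. Leaving out coffee 3 let 2 of the 46, Gsta4 and Gpx2, pass in coffee against control, in a fit that called 98 genes in all.

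Enzymes of conjugation and detoxification, a list of 16 genes, had 7 called lower and 1 called higher in coffee against control at an unadjusted p under 0.05, beside 10.8% and 9.25% of all genes, with a median of -0.07. In 5 of them the coffee libraries all lay below the control libraries, against 6.89% of all genes. Gsta4, a glutathione S-transferase that detoxifies the lipid aldehyde 4-hydroxynonenal, had 58.7, 92.3, 122 and 70.7 FPKM in coffee, 88.0, 163, 144 and 151 FPKM in GTE and 143, 155, 188 and 173 FPKM in control libraries. Its coffee values stood below all control values, and GTE 1 was the low one of the GTE libraries. The difference in coffee against control was -0.98 ± 0.23 (SE), with a limma p of 0.00149 and an adjusted p of 0.199. With the marrow covariate it was -0.50, with a p of 0.0543. Without coffee 1, coffee 4 and GTE 1 it was -0.62 (limma p of 0.00189, adjusted 0.440). The macrophage covariate gave -0.70 (limma p of 0.00117, adjusted 0.325).

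Nqo1, the quinone reductase that is often used as a reference target of Nrf2, had 10.1, 11.5, 11.4 and 9.67 FPKM in coffee, 11.7, 16.6, 13.2 and 15.2 FPKM in GTE and 12.9, 11.9, 14.6 and 16.4 FPKM in control libraries. Coffee lay below both other groups without overlap, while GTE and control overlapped. Of all genes, 6.89% had coffee wholly below control and 1.70% had GTE wholly above coffee. The difference was -0.35 in coffee against control (limma p of 0.0136, adjusted 0.212) and 0.37 in GTE against coffee (p of 0.0101, adjusted 0.718). Gstp1, another glutathione S-transferase, averaged 85.7 ± 7.02, 95.1 ± 6.26 and 106 ± 7.74 FPKM in coffee, GTE and control (SD, n = 4 each), a difference of -0.30 in coffee against control (limma p of 0.0038, adjusted 0.199). With the marrow covariate the difference in coffee against control was -0.17 for both Nqo1 and Gstp1, with unadjusted p of 0.243 and 0.0777. In GTE against coffee Nqo1 differed by 0.28 with that covariate (limma p of 0.0306, adjusted 0.389). Without coffee 1, coffee 4 and GTE 1 it differed by 0.36 there (limma p of 0.0296, adjusted 0.730). Genes of the glutathione S-transferase family have close copies, so their values are uncertain.

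NADPH is the electron source of Gsr and Txnrd1, and a list of 6 genes covered its supply and the pentose phosphate pathway. Of these, 5 had a difference above 0 in coffee against control, as had 8209 of all 15854 genes, and the median was 0.38. Of the 6, 1 was called higher at an unadjusted p under 0.05, beside 9.25% of all genes. That gene was Idh1, isocitrate dehydrogenase, with 38.2 ± 4.01, 34.0 ± 2.65 and 30.6 ± 4.85 FPKM in coffee, GTE and control and a difference of 0.32 in coffee against control (limma p of 0.0159, adjusted 0.215). G6pdx, which opens the pentose phosphate pathway, had 82.0, 52.4, 61.1 and 62.0 FPKM in coffee, 101.9, 54.4, 41.9 and 41.7 FPKM in GTE and 51.6, 46.1, 42.3 and 35.6 FPKM in control libraries. Every coffee library was above every control library, against 5.93% of all genes. Tkt, a later enzyme of that pathway, differed by 0.45 (adjusted p = 0.250). With the marrow covariate the differences in coffee against control were 0.22 for Idh1, with an unadjusted p of 0.157, -0.17 for G6pdx and 0.00 for Tkt.

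Among 5 glutathione genes 1 was called lower in coffee against control at an unadjusted p under 0.05, beside 10.8% of all genes. It was Gpx2, a glutathione peroxidase, which averaged 31.9 ± 14.3, 43.4 ± 9.79 and 50.9 ± 3.95 FPKM in coffee, GTE and control and differed by -0.74 in coffee against control (limma p of 0.00999, adjusted 0.205). Coffee 3 had 52.9 FPKM while the other 3 coffee libraries had 22.1 to 28.8 FPKM, and without coffee 3 the difference was -1.01, with an adjusted p of 0.0353. It was -0.37 without coffee 1, coffee 4 and GTE 1 and -0.50 with the marrow covariate, with unadjusted p of 0.146 and 0.138. Slc3a2, the heavy chain that carries Slc7a11 to the membrane, had a difference of -0.16 in coffee against control (adjusted p = 0.282), and Gpx4, the peroxidase of lipid hydroperoxides, one of -0.23 (adjusted p = 0.312).

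In the list of 3 thioredoxin and peroxiredoxin genes, Txn1, thioredoxin, was above every control library in every coffee library, against 5.93% of all genes. It had 155 ± 23.3, 139 ± 37.8 and 121 ± 7.28 FPKM in coffee, GTE and control. The difference in coffee against control was 0.35 (limma adjusted p = 0.260) and turned to -0.078 with the marrow covariate. Prdx1, a peroxiredoxin, differed by -0.23 (limma p of 0.0285, adjusted 0.222) and by -0.15 with the marrow covariate (p of 0.218), and Prdx6 by -0.21 (adjusted 0.294). Of the 5 heme and iron genes, Slc48a1, a heme transporter, had an unadjusted p under 0.05 only in GTE against coffee, at 0.16 (limma p of 0.0373, adjusted 0.727). Every GTE library of it was above every coffee library, against 1.70% of all genes. Blvrb, biliverdin reductase B, and Ftl1, ferritin light chain, had limma adjusted p of 0.691 and 0.656 in coffee against control. Txn1, Prdx1 and Ftl1 have close copies in the genome, and Ftl1 also shares 26.5% of its exon bases with Gm10252, so their values are uncertain.

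Among 11 regulators, none had an unadjusted p under 0.05 in coffee against control, beside 20.0% of all genes called in either direction. Cul3, the scaffold of the ligase that ubiquitinates Nrf2, averaged 29.5 ± 0.758, 29.4 ± 0.543 and 28.7 ± 2.13 FPKM in coffee, GTE and control, a difference of 0.04 in coffee against control (limma adjusted p = 0.684). Bach1, a repressor that competes with Nrf2 for its binding sites, differed by 0.34 (adjusted p = 0.302), and Mafg, a small MAF partner of both, by 0.20 (adjusted p = 0.422). Gsk3b, a kinase that marks Nrf2 for breakdown apart from Keap1, differed by 0.20 (adjusted p = 0.253), and Nfe2l1, a relative of Nrf2, by -0.27 (adjusted p = 0.263). With the marrow covariate Gsk3b differed by 0.36 (limma p of 0.00333, adjusted 0.184) and Nfe2l1 by 0.063 (adjusted 0.826). Maff, another small MAF protein, had 4.29 ± 0.440 FPKM in GTE and 6.87 ± 1.10 FPKM in control (SD, n = 4 each), with every GTE library below every control library, against 2.95% of all genes. Its difference was -0.57 (limma p of 0.032, adjusted 0.574).

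Slc7a11 is also a target of ATF4, the factor of the amino acid and stress response, so 12 further ATF4 genes were read beside it. In coffee against control 3 of them were called higher and 1 lower at an unadjusted p under 0.05, beside 9.25% and 10.8% of all genes, with a median of 0.07. In GTE against control 2 were called higher and 1 lower, beside 4.14% and 4.30% of all genes, with a median of 0.15. Asns, asparagine synthetase, averaged 21.0 ± 2.77, 22.6 ± 2.93 and 16.8 ± 2.30 FPKM in coffee, GTE and control, and its 4 GTE libraries were all above the control libraries (0.40, limma p of 0.00721, adjusted 0.543). Mthfd2, a mitochondrial folate enzyme, had every coffee and every GTE library above the control libraries, at 0.55 and 0.49 (adjusted p = 0.223 and 0.574). Sesn2, a sestrin, had every coffee library above the control libraries, at 0.40 (adjusted p = 0.200). Of all genes, 5.93% had every coffee library above the control libraries, and 2.88% had every GTE library above them. With the marrow covariate Mthfd2 stood at -0.018 in coffee and 0.20 in GTE against control, Sesn2 at 0.22 and Asns at 0.17 in coffee against control, all with an unadjusted p over 0.05. In GTE against control Asns stood at 0.33 with this covariate (limma p of 0.0247, adjusted 0.501). Without coffee 1, coffee 4 and GTE 1 that difference was 0.32 (limma p of 0.0302, adjusted 0.654). Library weights called Asns, Mthfd2 and Sesn2 in coffee against control, with limma adjusted p of 0.0332, 0.0329 and 0.0244. In that fit 34.7% of all genes had an unadjusted p under 0.05, a looser threshold than the adjusted one.

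**Figure D5:**
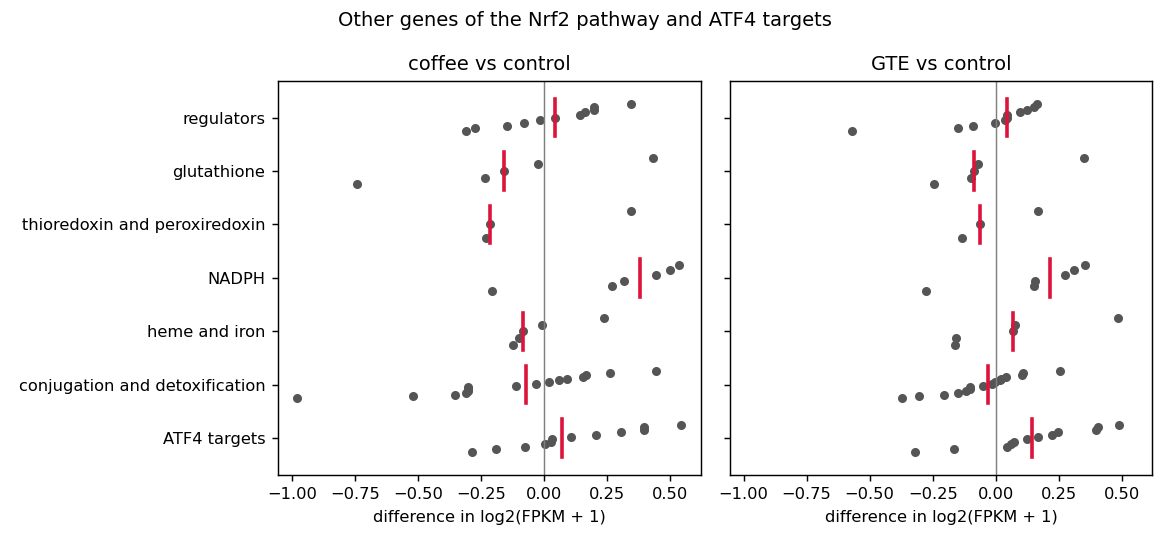
Difference in log2(FPKM + 1) (horizontal axes) from control of the 46 further genes of the Nrf2 pathway, in 6 lists, and of the 12 ATF4 targets; each point is a gene and each red bar the median of its list. In coffee the NADPH list stands to the right (median 0.38), and Gsta4 is the point farthest to the left (-0.98).

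For each member the 3 genes most alike in pattern were taken by Pearson's r of log2(FPKM + 1) over the 12 libraries. They came from the tested genes whose symbol is not a clone or predicted name, with the members themselves left out. They were picked by r and are therefore given without a test. Gsr was most like Gda (0.99), Tnfrsf26 (0.99) and Actr3 (0.99), and Gclm most like Cit, Nsd2 and Fbxo48 (0.98 each). Slc7a11 was most like Prg4 (0.98), C1qtnf2 (0.95) and March6 (0.95), Hmox1 most like Ap1g2 (0.95), Tmem86b (0.93) and Mfap3 (0.93), and Srxn1 most like Rtl8c (0.95), Abcb1a (0.94) and Slc24a3 (0.93). Nfe2l2 was most like Top1 (0.93), Ccar1 (0.92) and Phf6 (0.89), Txnrd1 most like Sppl3 (0.92), Basp1 (0.91) and Hs6st1 (0.88), Keap1 most like Fbxw17 (0.90), Isoc1 (0.89) and Tdrd7 (0.86), and Gclc most like Sipa1l3 (0.90), Alkbh5 (0.85) and Kcmf1 (0.84). Since the members were left out of this search, it does not show whether members were most like one another.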

How the data were processed

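The deposited values are FPKM per Ensembl gene and library, made by the authors from stranded mRNA libraries (TruSeq, per the labels' protocols). Trimmomatic, HTSeq, HISAT2 and Cufflinks and the build mm10 are listed in the submitters' processing notes. Roles, versions, annotation and the strand setting of counting are not given in the sources used, so genes that share exon bases are uncertain. Groups came from the sample titles. log2(FPKM + 1) was fitted with limma 3.58.1 (R 4.3.3), with empirical Bayes moderation, a mean-variance trend and 3 group means over 12 libraries (9 residual degrees of freedom), on genes that reached 1 FPKM in 4 or more libraries. Benjamini-Hochberg adjustment ran over all 15854 genes, with a threshold of 0.05. The fit was tested on simulated data. Fragments were recovered from FPKM steps, GENCODE M21 exon lengths and the library denominators, and all 9 members came out whole within 0.01 fragments. They served a voom fit and the fragment numbers. Correlations used 100000 two-sided permutations (scipy 1.17.1). All 9 members are named; of each other list, the 3 genes with the smallest F p are named, besides Nqo1, Cul3, Bach1, Mafg and Slc3a2. The members and lists were chosen with earlier results of these data known. Alternatives changed the pseudocount, filter, scaling, variance model, weights, block, covariates and libraries; those of the Gclc to Gclm ratio were chosen after seeing the data.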

Additional observations from a re-analysis of the deposited data

Results flagged for a closer look

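In 9 of the 99 groups of 4 libraries examined, the highest or lowest library stood far from the other 3. Chance does so in about 1 of 20 groups. Among the members, Slc7a11 had 8.74 FPKM in control 4, while the other control libraries had 3.51 to 4.30 FPKM. Keap1 had 12.5 FPKM in control 2 against 10.7 to 10.9 FPKM in the others. Of the other genes, Maff had 10.4 FPKM in coffee 2, where the other coffee libraries had 3.78 to 4.72 FPKM. Prdx1 had 108 FPKM in coffee 3 beside 87.7 to 90.4 FPKM, and Asns had 16.9 FPKM there beside 22.0 to 23.0 FPKM. GTE 1 was far from the other GTE libraries in 3 genes: Gpx4 with 174.7 FPKM beside 229 to 230.3 FPKM, Mthfd2 with 13.4 FPKM beside 6.06 to 7.28 FPKM, and Bach1 with 11.8 FPKM beside 7.19 to 7.64 FPKM. Gpx4 was also far in control 2, at 259 FPKM beside 219.7 to 221 FPKM. GTE 1 also had the highest mean level of the myeloid marrow list, 9.31; whether this bears on its values of these genes was not tested.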

How the results depend on the processing

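No member and no gene of the wider pathway passed an adjusted p of 0.05 under any of the 28 alternatives but library weights and the fit without coffee 3. Library weights also called Asns, Mthfd2 and Sesn2, the ATF4 targets named, in coffee against control. They called 1 member over the 3 groups (Gclm), 2 in coffee against control (Gclm and Gsr), 9 genes of the wider pathway in coffee against control and 2 in GTE against coffee. Under the weights 34.7% of all genes in coffee against control and 29.2% in GTE against coffee had an unadjusted p under 0.05, a looser threshold than that of these counts. At that looser threshold 3 members, Hmox1, Gclm and Gsr, were lower in GTE against coffee under the weights. Without GTE 1, Gsr was lower there at an unadjusted p under 0.05, beside 20.4% of all genes. Leaving out 1 library at a time gave 0 to 2 genes of the wider pathway in coffee against control. Whether the replicate numbers of the titles pair the libraries is not given. Over the 3 comparisons, deviations of same-numbered libraries correlated from -0.38 to 0.55. In 5 of 12 matches the best partner in the other group had the same number. Number 1 was its own best match in each comparison (r = 0.14, 0.40 and 0.55). With the number as a replicate block 0 members and 0 genes of the wider pathway passed in each comparison. Gclm and Gsr had 0.44 and 0.77 in coffee against control, with limma adjusted p of 0.0988 and 0.0991. In GTE against control Gsr joined Gclm at an unadjusted p under 0.05, beside 11.8% of all genes, against 8.43% without the block. In coffee against control these shares were 25.1% and 20.0%. The differences in the next paragraph are log2, none of them was called, and their sign differed from the values reported; the cause was not tested beyond the settings named.

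With the myeloid marrow covariate, coffee against control gave -0.079 for Bach1, -0.51 for Blvrb, -0.17 for G6pdx, 0.032 for Gpx4, -0.027 for Gsr, -0.34 for Hmox1, -0.069 for Mafg, -0.018 for Mthfd2, 0.063 for Nfe2l1, -0.072 for Nfe2l2, 0.15 for Srxn1, -0.078 for Txn1 and -0.00050 for Txnrd1. There, GTE against coffee gave 0.025 for Gclm, 0.091 for Gsr, 0.12 for Hmox1 and -0.23 for Slc7a11. There, GTE against control gave -0.22 for Hmox1. With the macrophage covariate, coffee against control gave -0.16 for Blvrb, -0.081 for Hmox1 and -0.015 for Nfe2l2. There, GTE against coffee gave -0.0012 for Gclc, 0.097 for Hmox1 and -0.019 for Slc7a11. Without coffee 1, coffee 4 and GTE 1, coffee against control gave -0.30 for Blvrb, -0.16 for Hmox1, -0.00074 for Keap1, 0.045 for Maff and -0.029 for Nfe2l2. There, GTE against coffee gave -0.030 for Gclc, 0.067 for Hmox1, 0.065 for Keap1 and 0.012 for Srxn1. There, GTE against control gave -0.097 for Hmox1. Under quantile normalization, coffee against control gave -0.016 for Slc7a11. There, GTE against control gave -0.0025 for Keap1. Under library weights, GTE against coffee gave -0.0075 for Gclc, 0.043 for Keap1 and 0.064 for Srxn1. There, GTE against control gave -0.12 for Hmox1.

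Leaving out 1 library at a time, the differences in coffee against control ran from -0.014 to 0.46 for Blvrb, -0.029 to 0.092 for Keap1, -0.043 to 0.11 for Nfe2l2, -0.075 to 0.30 for Slc7a11 and -0.020 to 0.092 for Txnrd1. In GTE against coffee they ran from -0.038 to 0.059 for Gclc, -0.40 to 0.037 for Hmox1, -0.090 to 0.045 for Keap1, -0.046 to 0.34 for Slc7a11 and -0.11 to 0.083 for Srxn1. In GTE against control they ran from -0.097 to 0.30 for Hmox1, -0.046 to 0.064 for Keap1, -0.12 to 0.031 for Nfe2l2, -0.0077 to 0.39 for Slc7a11 and -0.10 to 0.012 for Txnrd1. Gclm kept its sign against control in all 28 alternatives, from 0.14 to 0.53 in coffee and from 0.16 to 0.38 in GTE. It passed the adjusted threshold there only under library weights, in coffee. Gsr had an unadjusted p over 0.05 in coffee against control without coffee 1 (0.0713), coffee 4 (0.0545) or control 2 (0.066), and with the macrophage covariate (0.0567). With 4 libraries per group the precision was limited: the 95% interval of Gsr in GTE against control ran from -0.17 to 1.12.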
